A study of Rattus norvegicus with 12 samples.

Results

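The 5 genes described here encode the GABA-B receptor and the potassium channels it opens, and they are Gabbr1 and Gabbr2 for the receptor subunits and Kcnj3, Kcnj6 and Kcnj9 for the channel subunits. They were chosen by gene symbol, as all probe sets whose platform annotation names 1 of these symbols and no other. This gave 15 probe sets of the 15866 on the array that are not manufacturer's controls, and 5 of 10411 named genes. Gabbr1 had 5 probe sets, Gabbr2 had 2, Kcnj3 had 3, Kcnj6 had 4 and Kcnj9 had 1. Of the 15, 10 averaged 4 or more on the log2 scale and entered the test across all probe sets, and 5 lay below that level filter. The 10 cover all 5 genes, with 4 for Gabbr1, 1 for Gabbr2, 2 for Kcnj3, 2 for Kcnj6 and 1 for Kcnj9.

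The study measured RNA in the microdissected CA1 field of the hippocampus of male Long-Evans rats aged 3 to 4 months. The 12 samples, in 2 groups of 6 that the titles call biological replicates, were each run on 1 Affymetrix RAE230A array, a single-colour array on which short probes are grouped into probe sets. Samples are called rats below, although the labels do not say whether RNA was pooled. Spatial learning rats swam 8 trials, 8 minutes apart, to a visible platform in a fixed place with orienting cues in the room. Control task rats swam the same schedule to a visible platform whose place changed, in a room without informative cues. Both groups carried no genetic change that the labels name, had earlier been trained in a standard water maze 2 to 3 weeks before, and were given a 90 second probe trial 1 hour after the last swim, with tissue taken at once. The comparison asks which CA1 transcripts differ after a session in which a location could be learned.

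GABA-B receptors are metabotropic receptors for GABA that work as a pair of unlike subunits. The Gabbr1 protein binds GABA, and the Gabbr2 protein carries its partner to the cell surface and couples to inhibitory G proteins of the Gi/o class. The βγ part released from those G proteins opens G-protein-gated inward rectifier (GIRK) potassium channels, built from Kcnj3 (GIRK1), Kcnj6 (GIRK2) and Kcnj9 (GIRK3) subunits, which gives the slow inhibitory potential of CA1 pyramidal cells. At presynaptic terminals the same receptors lower calcium entry and transmitter release.

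No probe set of these genes passed the test. The difference of greatest size, -0.75 (log2), was on the variable Gabbr1 probe set 1369371_a_at, where the interval included 0. The 2 probe sets of Gabbr2 both lay lower in spatial learning rats, the best measured Kcnj6 probe set lay slightly higher, and the tested Kcnj3 and the 2 brightest Gabbr1 probe sets lay within 0.05 of no difference (log2). With limma and p-values adjusted by Benjamini-Hochberg across the 9610 probe sets tested, 0 of the 10 member probe sets passed at an adjusted p of 0.05, and 0% of all tested probe sets did. The smallest limma adjusted p among the 10 was 0.437. At an unadjusted limma p under 0.05 there were 2 of the 10, set against 10.9% of all tested probe sets (611 higher and 437 lower). Of the 10 differences, 4 were above 0 and 6 below, with a median of -0.04, while over all tested probe sets the median was 0.01. The tissue was a bulk dissection, so fewer cells of a type and less RNA per cell cannot be told apart. The array's hexokinase probe sets gauge RNA integrity by the gap between 3' and 5' ends. It ranged from 1.55 to 1.82 in spatial learning arrays and from 1.35 to 1.55 in control task arrays (log2). The groups differed in it (exact permutation p = 0.00433, n = 6 each). The beta-actin gap averaged 1.93 against 1.83 and overlapped (exact permutation p = 0.0779), and the GAPDH gap averaged 0.37 in both groups (exact permutation p = 0.998). With the hexokinase gap as a covariate, 0 of the 10 member probe sets had an unadjusted limma p under 0.05. Of the 10 differences, 2 moved by more than 1.5 times and 0 turned sign. Within the groups no relation of a member probe set to this gap passed (Pearson r, adjusted exact permutation p = 0.913 for each). The widest was that of Gabbr1 1388039_a_at (r = -0.49, exact permutation p = 0.112, n = 12 arrays). The gap nearly separates the groups, so the fit with it as a covariate cannot tell RNA integrity apart from the group.

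**Figure D1:**
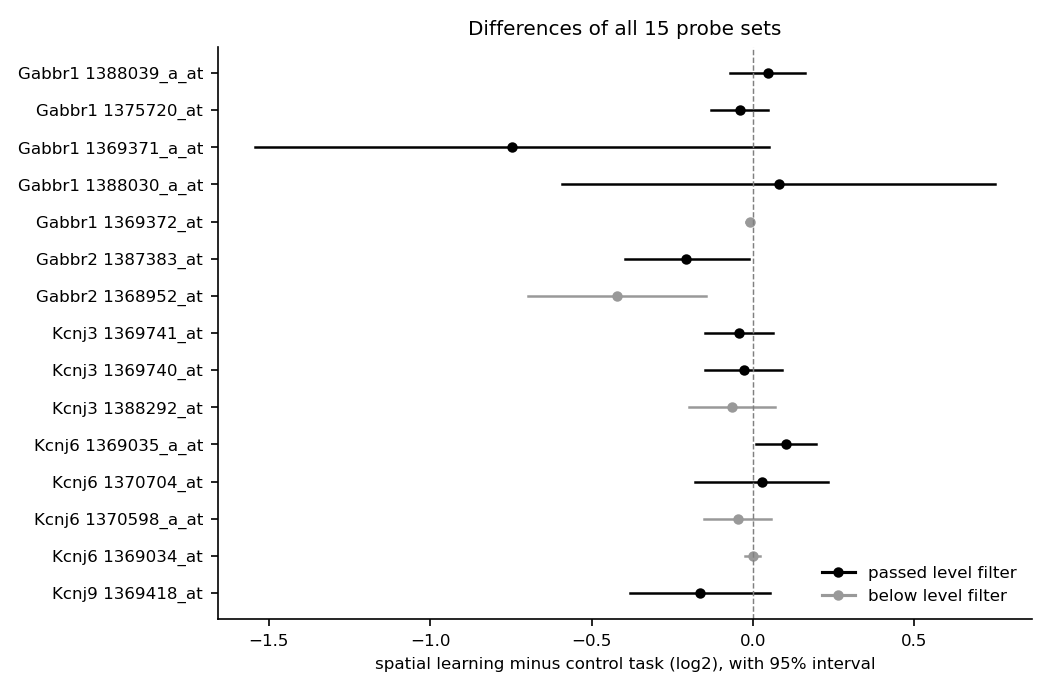
Difference, spatial learning minus control task, of each of the 15 probe sets on the log2 scale (x axis), as a point with its 95% interval from limma. Black marks the 10 probe sets that passed the level filter and grey the 5 below it. The intervals of Gabbr2 1387383_at and 1368952_at lie below 0 and that of Kcnj6 1369035_a_at lies above 0, all without adjustment for the number of probe sets.

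Gabbr2, the subunit that couples the receptor to its G protein, is measured by probe set 1387383_at. Its log2 values were 9.53, 9.68, 9.35, 9.69, 9.87 and 9.83 in spatial learning rats 1 to 6, against 9.85, 9.90, 9.89, 10.06, 9.84 and 9.63 in control task rats 1 to 6. All 6 spatial learning arrays lay under the control median, and 2 lay under the lowest control, which was control task 6, so the groups overlapped. The mean was 9.66 ± 0.20 in spatial learning rats and 9.86 ± 0.14 in control task rats (log2, SD, n = 6 each), a difference of -0.21 with a 95% interval of -0.40 to -0.01. On a linear scale this is 0.867 times the control task level. The limma adjusted p was 0.437, the unadjusted limma p 0.0380 and the exact permutation p 0.0736 (2-sided, over all arrangements of the 12 arrays). With the hexokinase gap as a covariate the difference was -0.23 and the unadjusted limma p 0.102. The second probe set, 1368952_at, had a mean of 3.37 and lay below the level filter.

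The dimmer Gabbr2 probe set is given as a description, since it lay below the level filter and outside the main test. Its log2 values were 3.16, 3.25, 3.02, 3.33, 3.26 and 2.96 in spatial learning rats 1 to 6, and 3.32, 3.32, 3.96, 3.47, 3.99 and 3.44 in control task rats 1 to 6. All but spatial learning 4 lay under every control, and control task 3 and 5 were the highest. The difference was -0.42 with an SE of 0.13, with an exact permutation p of 0.00649 and a limma adjusted p of 0.501 in the fit without the level filter. With the hexokinase gap as a covariate it was -0.26, against -0.23 for the brighter probe set in the same fit. The unadjusted limma p of the dimmer probe set was 0.160 with that covariate and 0.00578 without it. Within the groups the 2 Gabbr2 probe sets did not follow each other across arrays (Pearson r = 0.10, exact permutation p = 0.749, and Spearman rho = 0.03, exact permutation p = 0.921, n = 12), and r was -0.03 without spatial learning 1 and 3. No adjustment was made for this single pair.

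Gabbr2 and Kcnj6 are the members with an unadjusted limma p under 0.05 on a probe set that passed the filter. With the hexokinase gap as a covariate neither p was under 0.05, while the differences were -0.23 for Gabbr2 and 0.13 for Kcnj6 (log2). The start of each gene is shown here. Both are the 250 bases before the RefSeq transcription start on GRCr8, minus strand, for Gabbr2 at chr5:66083696-66083945 and for Kcnj6 at chr11:47778349-47778598, 5′ to 3′, with the core of a cAMP response element (TGACG, or CGTCA on the other strand) in capitals.
Gabbr2: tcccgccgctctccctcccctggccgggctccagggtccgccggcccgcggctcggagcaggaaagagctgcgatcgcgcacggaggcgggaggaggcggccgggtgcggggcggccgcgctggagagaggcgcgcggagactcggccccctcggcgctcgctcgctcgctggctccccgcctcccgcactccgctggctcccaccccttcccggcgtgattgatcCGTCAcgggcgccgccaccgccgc
Kcnj6: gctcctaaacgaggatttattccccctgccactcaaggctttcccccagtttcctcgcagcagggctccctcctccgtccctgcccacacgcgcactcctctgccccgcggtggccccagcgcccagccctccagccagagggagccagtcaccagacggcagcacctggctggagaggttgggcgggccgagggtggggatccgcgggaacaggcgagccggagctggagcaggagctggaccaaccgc
The Gabbr2 window was 78.8% G and C and the Kcnj6 window 69.2%. The core in the Gabbr2 window begins 24 bases before the start, and 18.2% of all 33469 RefSeq promoter windows of this length hold one on either strand. The full element TGACGTCA, an AP-1 site (TGANTCA), an Egr site (GCGNGGGCG) and a TATA box (TATAAA) had no match on either strand in the windows of Gabbr2, Kcnj6, Gabbr1 or Kcnj9, the 4 of 5 member genes with an entry. Of all windows, 1.59% hold the full element, 6.34% the AP-1 site, 4.29% the Egr site and 12.9% the TATA box. The letters CCAAT were found once, in the Kcnj9 window, and 11385 of all windows hold them. A match of letters is a description and not evidence of a bound site.

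Gabbr1, the subunit that binds GABA, was measured by 5 probe sets that did not give 1 picture. On the brightest, 1388039_a_at, the values were 11.08, 11.14, 11.14, 11.18, 11.33 and 11.11 in spatial learning rats 1 to 6, against 11.14, 10.99, 11.00, 11.17, 11.27 and 11.13 in control task rats 1 to 6 (log2). The groups overlapped throughout, with a difference of 0.05 and a 95% interval of -0.07 to 0.16 (limma adjusted p = 0.794). With the hexokinase gap as a covariate it was 0.13 (limma adjusted p = 0.782). On 1375720_at the difference was -0.04, with an interval of -0.13 to 0.05. There spatial learning values ran from 10.67 to 10.82 and control task values from 10.69 to 10.90.

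The other Gabbr1 probe sets that passed the filter were far more variable. On 1369371_a_at the values were 7.01, 7.97, 8.13, 8.34, 8.85 and 8.33 in spatial learning rats 1 to 6, against 9.51, 8.36, 7.58, 9.88, 9.12 and 8.67 in control task rats 1 to 6 (log2). All 6 spatial learning arrays lay under the control median, yet control task 3 was lower than 5 of them. The difference was -0.75 with a 95% interval of -1.54 to 0.05 (limma adjusted p = 0.480, exact permutation p = 0.108). It was -0.53 with the hexokinase gap as a covariate and -1.16 without control task 3 and 6 and spatial learning 6, the arrays that earlier results of these data named as high in choroid plexus or meningeal transcripts, neither past the threshold. On 1388030_a_at the values were 5.71, 5.67, 5.99, 5.82, 4.84 and 4.89 in spatial learning rats 1 to 6, and 4.80, 5.92, 6.52, 5.53, 4.78 and 4.88 in control task rats 1 to 6. In both groups some arrays stood between 4.78 and 4.89 and the others between 5.53 and 6.52. The difference was 0.08 with an interval of -0.59 to 0.75, and 0.35 without the same 3 arrays. The residual SD was 0.73 for 1369371_a_at and 0.61 for 1388030_a_at, larger than in 99.7% and 99.6% of all tested probe sets, while for 1388039_a_at it was 0.10, at the percentile 32.2. The fifth, 1369372_at, stayed between 1.55 and 1.59 on all arrays, below the filter.

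**Figure D2:**
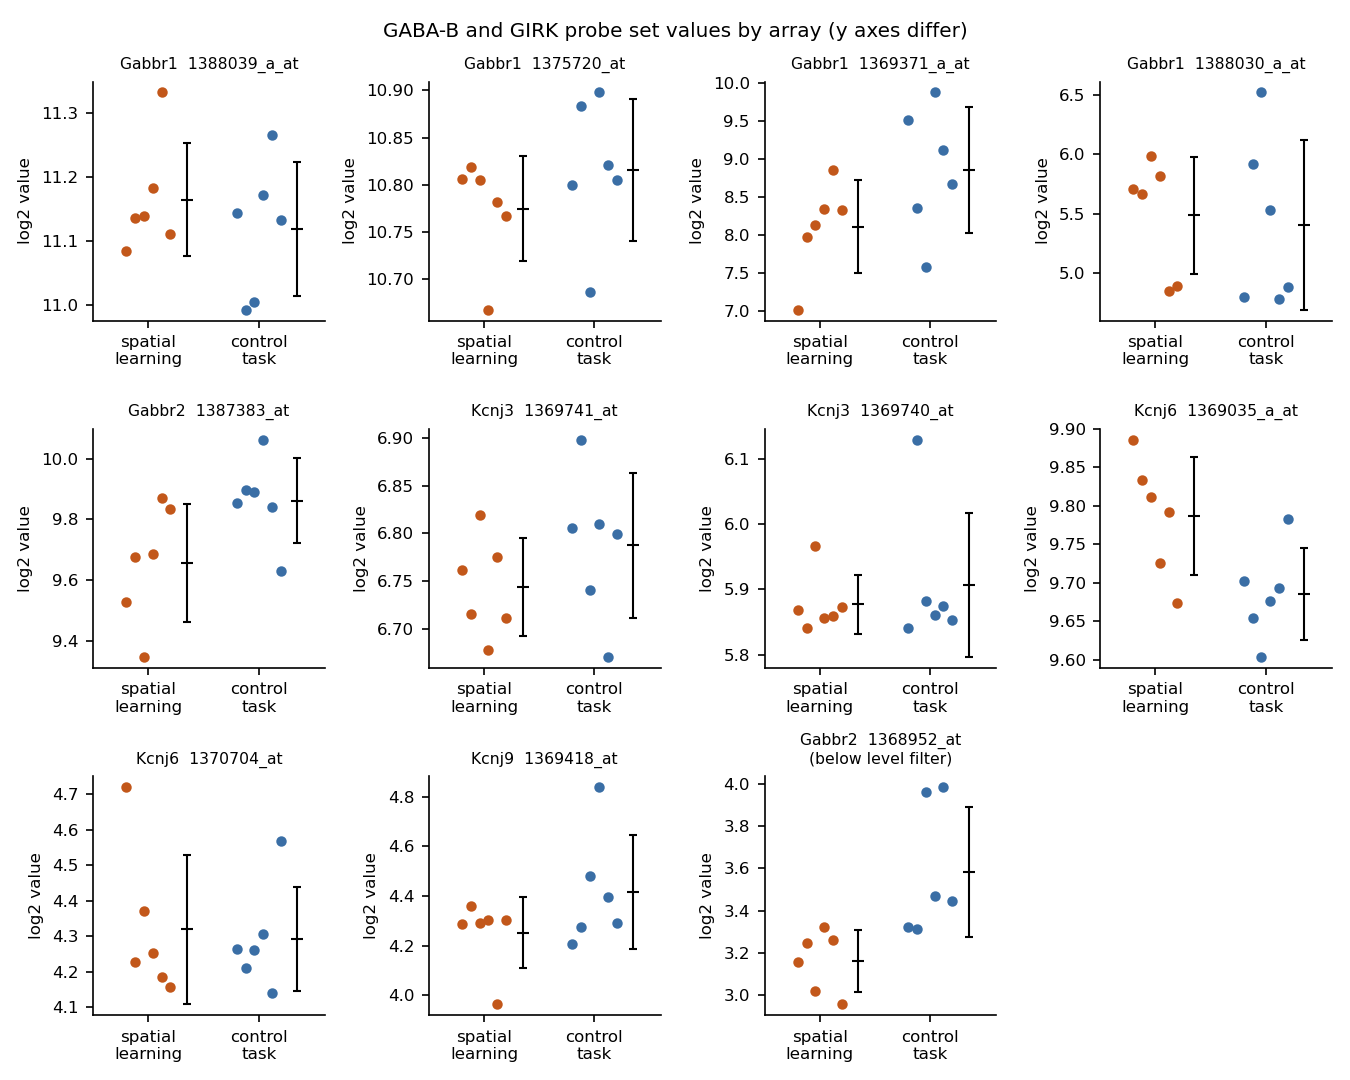
Log2 values (y axes, which differ between panels) of the 10 probe sets that passed the level filter and of the dimmer Gabbr2 probe set, by array, with spatial learning rats left (orange) and control task rats right (blue). Each point is 1 rat in replicate order and bars show mean ± SD (n = 6 each). Gabbr2 1387383_at averaged 9.66 in spatial learning rats and 9.86 in control task rats, and Gabbr1 1388030_a_at falls into low and high arrays within both groups.

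These Gabbr1 probe sets also varied against each other from rat to rat. After subtracting group means, 1369371_a_at followed 1388039_a_at (Pearson r = 0.74, exact permutation p = 0.0132, adjusted 0.0676; Spearman rho = 0.88, exact permutation p = 0.000803, adjusted 0.00642; n = 12 arrays). Probe set 1388030_a_at ran opposite to 1388039_a_at (r = -0.68, exact permutation p = 0.0268, adjusted 0.0714; rho = -0.76, exact permutation p = 0.0120, adjusted 0.0480). Between 1369371_a_at and 1388030_a_at r was -0.63 (exact permutation p = 0.0528, adjusted 0.106) and rho -0.70 (exact permutation p = 0.0267, adjusted 0.0713). Leaving out the 2 arrays farthest from the median of the first-named measure gave r of 0.71, -0.60 and -0.80 for the 3 pairs. The adjustment covers the 8 pairs of probe sets of the same gene. Without subtracting group means none of the 3 pairs passed. There r was 0.50, -0.64 and -0.58 (adjusted permutation p = 0.148, 0.0916 and 0.0962), and the adjusted permutation p of rho was 0.137 for each. The same signs were seen within each group, with r of 0.76 in spatial learning and 0.73 in control task arrays for the first pair, and of -0.49 in spatial learning and -0.81 in control task arrays for the second. For 1375720_at no pair passed, with r of 0.09 to 1388039_a_at (exact permutation p = 0.798; rho = -0.06, exact permutation p = 0.879), 0.30 to 1369371_a_at (exact permutation p = 0.395; rho = 0.10, exact permutation p = 0.767) and -0.23 to 1388030_a_at (exact permutation p = 0.529; rho = 0.04, exact permutation p = 0.911). Without the 2 arrays farthest from the median, these 3 r values were 0.30, -0.09 and 0.81, so they depend on those arrays. The files do not say which Gabbr1 transcript each probe set reads.

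**Figure D3:**
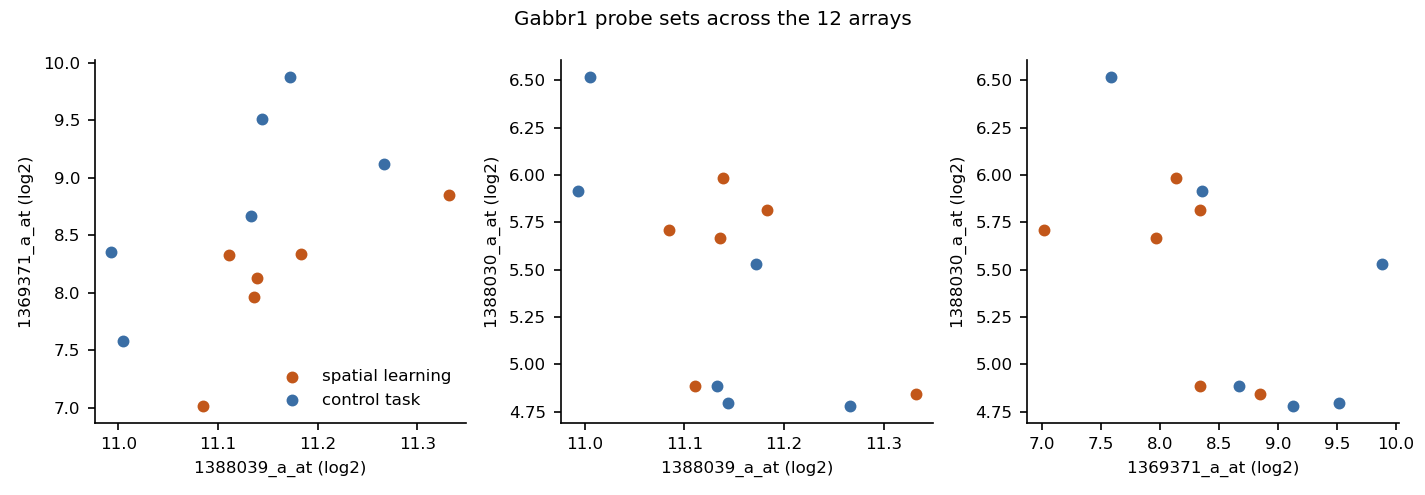
Log2 values of 3 Gabbr1 probe sets plotted against each other, 1 point per rat, spatial learning in orange and control task in blue. Left, 1369371_a_at tends to be high where 1388039_a_at is high, with r of 0.50 as drawn and 0.74 within groups. Middle and right, 1388030_a_at tends to be low where the other 2 are high. There r was -0.64 and -0.58 as drawn, and -0.68 and -0.63 within groups.

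Kcnj6 encodes GIRK2, the subunit present in most neuronal GIRK channels. On its best measured probe set, 1369035_a_at, the values were 9.89, 9.83, 9.81, 9.73, 9.79 and 9.67 in spatial learning rats 1 to 6, and 9.70, 9.65, 9.60, 9.68, 9.69 and 9.78 in control task rats 1 to 6 (log2). Spatial learning rats 1, 2, 3 and 5 lay above every control, while spatial learning 6 lay under the control median and control task 6 was the highest of its group. The mean was 9.79 ± 0.08 in spatial learning rats and 9.69 ± 0.06 in control task rats (SD, n = 6 each), a difference of 0.10 with a 95% interval of 0.01 to 0.20, or 7.29% with an interval of 0.575% to 14.5%. The limma adjusted p was 0.437, the unadjusted limma p 0.0351 and the exact permutation p 0.0281. With the hexokinase gap as a covariate it stood at 0.13 (limma adjusted p = 0.774). The unadjusted limma p in that fit was 0.0542.

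The other Kcnj6 probe sets did not show this. On 1370704_at, near the filter, values ran from 4.16 to 4.72 in spatial learning rats and from 4.14 to 4.57 in control task rats, with a difference of 0.03 and an interval of -0.18 to 0.23, and 0.09 with the hexokinase gap as a covariate. Its highest arrays were spatial learning 1 and control task 6, which were also the highest of their groups on 1369035_a_at, and within groups the 2 probe sets gave r = 0.71 (exact permutation p = 0.0169, adjusted 0.0676) and rho = 0.57 (exact permutation p = 0.0767, adjusted 0.153). Below the filter, 1370598_a_at differed by -0.05 (-0.09 with that covariate) and 1369034_at by less than 0.001 in size.

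Kcnj3 encodes GIRK1, which forms channels only together with another GIRK subunit, and its tested probe sets varied little between rats. On 1369741_at the values were 6.76, 6.72, 6.82, 6.68, 6.78 and 6.71 in spatial learning rats 1 to 6, against 6.81, 6.90, 6.74, 6.81, 6.67 and 6.80 in control task rats 1 to 6 (log2). The groups overlapped, and the difference was -0.04 with an interval of -0.15 to 0.06 (limma adjusted p = 0.779, exact permutation p = 0.266). On 1369740_at, 11 arrays lay between 5.84 and 5.97 and control task 2 stood at 6.13, with a difference of -0.03 (-0.15 to 0.09). The third, 1388292_at, was below the filter and differed by -0.07 (-0.20 to 0.07).

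Kcnj9 encodes GIRK3, a subunit that, through a motif at its tail, binds the sorting protein Snx27. Its single probe set, 1369418_at, lay just over the filter. Values were 4.29, 4.36, 4.29, 4.30, 3.96 and 4.30 in spatial learning rats 1 to 6, and 4.21, 4.28, 4.48, 4.84, 4.40 and 4.29 in control task rats 1 to 6 (log2). Control task 4 stood highest and spatial learning 5 lowest, and the remaining arrays of both groups overlapped between 4.21 and 4.48. The difference was -0.16 with an interval of -0.38 to 0.05 (limma adjusted p = 0.576, exact permutation p = 0.184). Without control task 4 it was -0.08, and without spatial learning 5 it was -0.11.

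Across the 12 rats no pair of the 5 genes passed a test of varying together. With the brightest probe set of each gene and group means subtracted, Pearson r over the 10 gene pairs ran from -0.59 to 0.25, and every adjusted exact permutation p was 0.623. The widest of these was the pair of Gabbr2 and Kcnj6, where rats with more Gabbr2 had less Kcnj6 (r = -0.59, exact permutation p = 0.0657; rho = -0.71, exact permutation p = 0.0192, adjusted 0.192). It had the same sign in each group, with r of -0.54 in spatial learning and -0.69 in control task arrays, and r was -0.58 without spatial learning 1 and 3. Without the 3 arrays high in choroid plexus or meningeal transcripts r was -0.35 (exact permutation p = 0.512). Without subtracting group means r was -0.73 (permutation p = 0.00637, adjusted 0.0637) and rho -0.76 (permutation p = 0.00636, adjusted 0.0636), which includes the opposite group differences of the 2 genes. The 2 receptor subunits gave r = 0.25 (exact permutation p = 0.443; rho = 0.11, exact permutation p = 0.740) and r = 0.08 without control task 2 and spatial learning 5. The channel subunits Kcnj3 and Kcnj6 gave r = 0.25 (exact permutation p = 0.438; rho = 0.25, exact permutation p = 0.442) and r = 0.56 without control task 2 and 5.

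**Figure D4:**
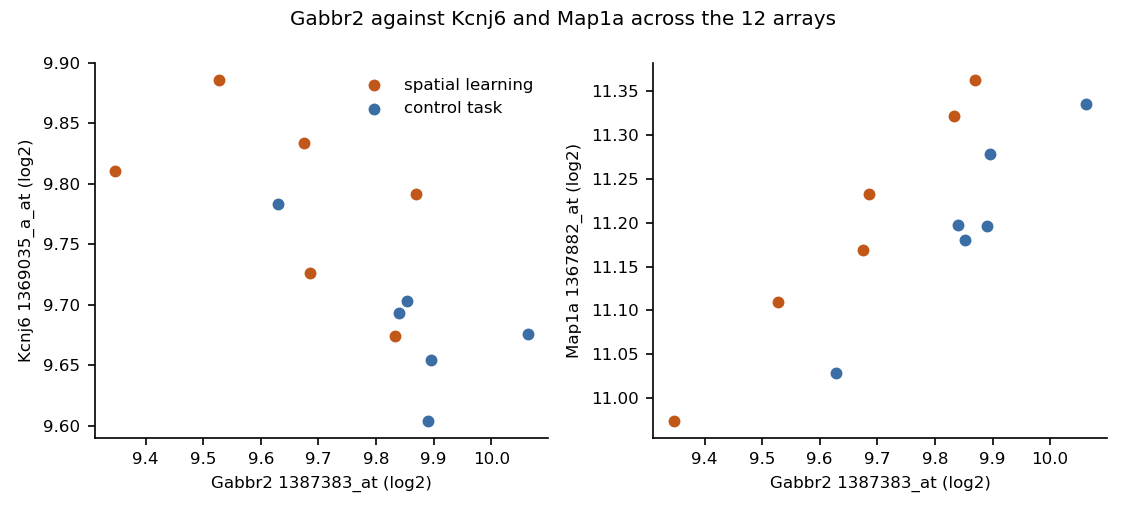
Gabbr2 1387383_at (x axes, log2) against Kcnj6 1369035_a_at (left) and Map1a 1367882_at (right), 1 point per rat, spatial learning in orange and control task in blue. Kcnj6 runs opposite to Gabbr2 with within-group r of -0.59. Map1a follows Gabbr2 along parallel lines, with the spatial learning points to the left at the same Map1a level.

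The genes whose pattern over the 12 arrays was most like each member were found by the highest Pearson r after subtracting group means, from all tested named genes, so the values are picked as the highest of many and carry no test. For Gabbr2 they were Map1a (r = 0.98), a microtubule-associated protein of neurons, Kcna1 (r = 0.92), a voltage-gated potassium channel subunit, and Gosr2 (r = 0.90), a Golgi SNARE protein. Map1a stood at 11.11, 11.17, 10.97, 11.23, 11.36 and 11.32 in spatial learning rats 1 to 6, and at 11.18, 11.28, 11.20, 11.34, 11.20 and 11.03 in control task rats 1 to 6 (log2). Its mean was 11.20 ± 0.14 in spatial learning rats and 11.20 ± 0.10 in control task rats (SD, n = 6 each), a difference of -0.01, so Map1a tracked Gabbr2 from rat to rat while its group means lay together. Kcna1 differed by -0.10 and Gosr2 by -0.34, none past the threshold, and a brighter Gosr2 probe set gave r = -0.11 with Gabbr2.

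For Kcnj9 the 3 were Dnm2 (r = 0.93), Rtn3 (r = 0.91) and Fhip1b (r = 0.91), each on a probe set that lay between 4.22 and 4.74 on all arrays. Their Spearman rho was lower, at 0.82, 0.71 and 0.78. Dnm2 had the same extreme arrays as Kcnj9, with control task 4 highest at 4.742 and spatial learning 5 lowest at 4.455. The 2 bright probe sets of Rtn3, a reticulon of the endoplasmic reticulum, gave r of 0.36 and 0.43 with Kcnj9. The likeness to Kcnj9 was thus with dim probe sets near the filter. For Gabbr1 the nearest were Tm7sf3 (r = 0.87), Spns1 (r = 0.86) and Cep20 (r = 0.85). Kcnj3 had Asmtl (r = 0.96), Ogfr (r = 0.89) and Patz1 (r = 0.88), and Kcnj6 had Gpr155 (r = 0.91), Rnf167 (r = 0.91) and Slc9a2 (r = 0.89). No member was among the nearest of another member.

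The rest of the pathway was followed through 8 lists of 145 genes, of which 83 were tested. With limma, 0 of the 83 passed over all tested probe sets, and 15 had an unadjusted p under 0.05, a share of 18.1%, set against the 10.9% of all tested probe sets. The lists were written with earlier results in view and held genes such as Rgs4 that were known to lie low, so that share is a description only. With the hexokinase gap as a covariate 8 of the 83 had an unadjusted limma p under 0.05. Of the 83 differences, 51 moved by more than 1.5 times and 16 turned sign. The values below are without the covariate unless it is named. The hexokinase gap nearly separates the groups, so its part in these values cannot be told apart from that of the group. Above 0 were 38 of the 83 and below 0 were 45, and the median difference was -0.02. The median over the 5 member genes on their brightest probe sets was -0.04.

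Among G protein subunits 7 of 13 lay above 0 and 6 below, 2 of the lower ones with an unadjusted p under 0.05. That share, 15.4%, is near the 10.9% of all tested probe sets and is no result about the list. Gnai2, an inhibitory α subunit, averaged 9.96 ± 0.11 in spatial learning rats and 10.08 ± 0.05 in control task rats (log2, SD, n = 6 each), a difference of -0.12 with 4 spatial learning arrays under every control. Gng5, a γ subunit, differed by -0.23 with 5 arrays under every control, and Gnao1, the most abundant α subunit in brain, by -0.12 with an SE of 0.12. Gnb1, a β subunit, differed by -0.08 on its brightest probe set and by -0.17 and -0.56 on its other 2. The smallest limma adjusted p of the list was 0.434.

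Among 20 genes for partners of the receptor or channel, 6 had an unadjusted p under 0.05, 4 lower and 2 higher, and the median was -0.03. This is 30% of the list, beside 10.9% of all tested probe sets, and it was 3 of 20 with the hexokinase gap as a covariate. Rgs4, which speeds the shut-off of Gi/o signals, averaged 8.55 ± 0.21 in spatial learning rats and 9.02 ± 0.25 in control task rats (log2, SD, n = 6 each), a difference of -0.47 (limma adjusted p = 0.310), and -0.68 on its second probe set. Rgs7, the regulator that acts on GIRK currents in hippocampal neurons, lay the other way at 0.16 (limma adjusted p = 0.434), and at 0.09 with that covariate. Cask, a membrane scaffold kinase, differed by -0.25 with 5 arrays under every control. Nsf, the ATPase that recycles SNARE complexes and binds GABA-B receptors, differed by -0.08 on the probe set of highest mean, with all 6 spatial learning arrays under every control. Groups that do not overlap were found in 0.635% of all tested probe sets, and the 2 other Nsf probe sets differed by -0.08 and -0.04. Kctd12, an auxiliary subunit of the receptor, differed by 0.02 with an SE of 0.06, and Kctd16 lay below the filter.

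**Figure D5:**
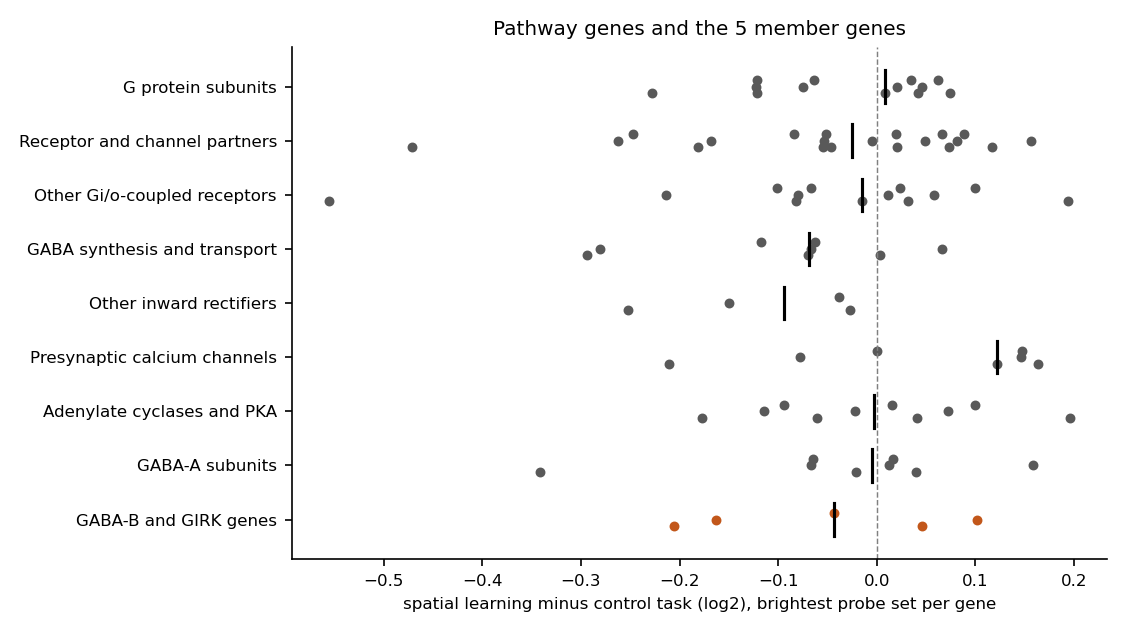
Difference, spatial learning minus control task (x axis, log2), of each tested gene of the 8 pathway lists (grey) and of the 5 GABA-B and GIRK genes (orange), on the probe set of highest mean, with black bars at the medians. The 5 genes lie between -0.21 and 0.10, inside the range of the other lists.

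Other receptors that couple to Gi/o proteins were tested for 13 of 27 genes, 6 above 0 and 7 below. Sstr1, a somatostatin receptor, differed by -0.56 with 2 arrays under every control (limma adjusted p = 0.430), Sstr2 by -0.21 and S1pr1 by -0.10. The adenosine receptor Adora1 differed by -0.01 on 1 probe set and -0.28 on the other, and the serotonin receptor Htr1a by 0.19 with an SE of 0.13. With the covariate the first Adora1 value was 0.07 and that of Htr1a 0.08. A further 13 genes of this list, among them Oprm1, Chrm2 and Drd2, lay below the filter. Of the GABA synthesis and transport genes, 2 of 8 lay above 0 and 6 below. Abat, which breaks GABA down, differed by -0.29 with no array under every control (-0.17 with the covariate), and Glul by -0.12. Gad2, Gad1 and Slc32a1, which make GABA and load it into vesicles, differed by -0.28, -0.07 and -0.07. A dimmer tested Gad1 probe set stood at -0.23, and the other Glul probe sets at -0.29 and -0.14.

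The other inward rectifier channels were mostly dim, with 8 of 12 below the filter, among them the remaining GIRK subunit gene Kcnj5. The 4 tested all lay below 0. Kcnj10, the astrocyte channel, averaged 4.80 ± 0.10 in spatial learning rats and 5.05 ± 0.20 in control task rats (log2, SD, n = 6 each), with a limma adjusted p of 0.420, and the difference of -0.25 was -0.15 with the covariate. Kcnj4 differed by -0.15 and Kcnj14 by -0.04. Of 7 presynaptic calcium channel subunits 5 lay above 0, with a median of 0.12. They included Cacnb2 at 0.16, Cacnb1 at 0.15 with 5 arrays above every control, and Cacna1b, the N-type pore subunit that GABA-B receptors restrain, at 0.12. Below 0 lay Cacna1a, the P/Q-type pore subunit, at -0.21, and Cacnb3 at -0.08, both chosen after their values were seen. For Cacna1a 3 spatial learning arrays lay under every control and 1 above every control, and a dimmer tested probe set stood at 0.02. The other 2 Cacnb2 probe sets stood at 0.01 and -0.02. Among 10 adenylate cyclase and protein kinase A genes 5 lay above 0 and 5 below, with Adcy5 at 0.20, Prkar2b at -0.11 and Adcy6 at -0.18. For GABA-A subunits, the ion channel receptors for GABA, 4 of 8 lay on each side, with Gabrg1 at -0.34, Gabra4 at 0.16 and Gabra5 at 0.04. With the covariate Gabrg1 stood at -0.53 and Gabra4 at 0.42. In these 4 lists the smallest limma adjusted p ran from 0.420 to 0.434.

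Markers of the dissected field and of neighbouring cells were read beside these results. Over all tested probe sets 5164 differences lay above 0 and 4446 below. All 10 CA1 markers with a probe set passed the filter, among them Wfs1 and Fibcd1, with 8 above 0, and their mean level ran from 10.10 to 10.41 in spatial learning arrays and from 10.05 to 10.34 in control task arrays (log2). Dentate markers passed in 5 of 10, with 4 of the 5 below 0, at 7.30 to 7.61 in spatial learning arrays and 7.33 to 7.83 in control task arrays. CA3 markers ran from 8.82 to 9.04 in spatial learning arrays and 8.87 to 9.05 in control task arrays, with 3 of 7 above 0 and 4 below. An unadjusted limma p under 0.05 was found for 57.1% of them, 2 higher and 2 lower, and for 30% of CA1 markers, beside 10.9% of all tested probe sets. Bok differed by 0.37 with all 6 spatial learning arrays above every control, and Nnat by -0.34 with 4 under every control. Interneuron markers lay at 8.45 to 8.68 in spatial learning arrays and 8.41 to 8.60 in control task arrays, with 5 of 10 above 0 and 5 below. Astrocyte markers spanned 10.39 to 10.54 in spatial learning arrays and 10.50 to 10.63 in control task arrays, with 11 of 13 below 0. Oligodendrocyte markers stood at 9.97 to 10.39 in spatial learning arrays and 9.97 to 10.38 in control task arrays, with 9 of 11 below 0. Microglial markers ran from 7.02 to 7.401 in spatial learning arrays and 7.10 to 7.58 in control task arrays, with 8 of 9 below 0. Vessel markers lay at 6.66 to 7.07 in spatial learning arrays and 6.77 to 7.01 in control task arrays, with 4 of 7 below 0. Meningeal markers spanned 6.34 to 7.60 in spatial learning arrays and 6.51 to 7.86 in control task arrays, with 5 of 7 below 0. Choroid plexus markers stood at 5.78 to 6.72 in spatial learning arrays and 6.07 to 9.26 in control task arrays, with Folr1, Kl, F5, Aqp1 and Otx2 below the filter. Of those tested 3 of 4 lay below 0. Ttr differed by -3.33, with a control task SD of 3.28 and all 6 spatial learning arrays under every control. Markers of neighbouring regions ran from 6.91 to 7.26 in spatial learning arrays and 7.16 to 7.36 in control task arrays, with 3 of 5 below 0. Among them Slc17a6 differed by -0.73 with 3 spatial learning arrays under every control. The part of these markers in the Gabbr2 and Kcnj6 values was not tested. The fit without the 3 arrays high in choroid plexus or meningeal transcripts gave -0.29 for Gabbr2 1387383_at and 0.13 for Kcnj6 1369035_a_at.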

How the data were processed

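The deposited table holds log2 probe set values for 12 arrays. The submitters' processing notes name GCRMA, with version and settings not given in the sources used here; the authors' log2 scale was read from the range of the values. GCRMA makes array distributions nearly equal and compresses dim probe sets. The correlation between arrays was 0.996 to 0.998. Gene symbols come from the platform annotation, and all 15 member probe sets matched a rat gene in RefSeq (GRCr8). Depth has no counterpart on arrays, whose number limits the precision.

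Probe sets with a mean of at least 4 entered a limma fit (version 3.58.1, R 4.3.3; eBayes with a trend, group as the only term, 2-sided, Benjamini-Hochberg over 9610 probe sets, threshold 0.05). Members below that level were read from the fit without it. Exact permutation tests used all arrangements of the arrays (smallest p 0.00216), or, for correlations, all 518400 arrangements within groups, and 100000 resamples where group means were kept. The fit was also run on simulated data with independent noise and changes larger than the Gabbr2 and Kcnj6 differences. That run held no hexokinase gap and does not gauge how well differences of the size seen here are found. The members, lists and tests were chosen with earlier results of these data known. Named genes were all members, the first 3 by p and some preset genes of each list, and the 3 nearest in pattern. Groups and replicate numbers come from the titles, which call the arrays biological replicates. Same-numbered arrays did not deviate together (r from -0.171 to 0.0821), so they were not treated as pairs. No scan date or batch was used. CA3 and dentate tissue is not analysed here.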

Additional observations from a re-analysis of the deposited data

Results flagged for a closer look

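Single arrays stood apart from the rest of their group of 6 in 5 of the 30 groups examined (15 probe sets in each of 2 groups), where chance gives about 1 in 20. Each had a gap to the nearest array that exceeded Dixon's critical share of the group's range. For Gabbr1 1375720_at, spatial learning 4 stood at 10.67 with the next at 10.77. On Kcnj3 1369740_at, spatial learning 3 stood at 5.97 with the next at 5.87, and control task 2 at 6.13 with the next at 5.88. Kcnj6 1369034_at, below the level filter, had spatial learning 5 at 2.63 with the next at 2.67. The Kcnj9 probe set 1369418_at had spatial learning 5 at 3.96 with the next at 4.29, and without that array the Kcnj9 difference was -0.11; without control task 4, the highest array, it was -0.08.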

How the results depend on the processing

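No member probe set passed an adjusted limma p of 0.05 under any alternative, and the smallest was 0.289, for Gabbr1 1369371_a_at without the 3 arrays high in choroid plexus or meningeal transcripts. The Gabbr2 1387383_at difference kept its sign in all of them, from -0.29 to -0.21 and, leaving out 1 array at a time, from -0.25 to -0.14; Kcnj6 1369035_a_at ran from 0.10 to 0.13 and from 0.08 to 0.12. The count of calls over all tested probe sets was 0, with 1048 at an unadjusted p under 0.05; it was 3 with array weights, 5 without the 3 arrays and 0 to 3 leaving out 1 array, the 3 coming without control task 6. The exact rank-sum test gave 0 calls and 896 with an unadjusted p under 0.05. With 6 arrays per group its p cannot go under 0.00216. That is too coarse for a call over 9610 probe sets when 61 have groups that do not overlap. With the hexokinase gap as a covariate the count was 0, with 605 at an unadjusted p under 0.05 and 0 of the 10 tested members among them. With a replicate block the count was 0, with 769 at an unadjusted p under 0.05 and 0 of the 10 members among them; only 2 of 12 arrays correlated best with their own number. Signs turned with array weights for Gabbr1 1388030_a_at (-0.00809) and Kcnj6 1369034_at (0.00426), and for this Kcnj6 probe set also without the 3 arrays (0.00308). Leaving out 1 array, Gabbr1 1388030_a_at ran from -0.0456 to 0.302, Kcnj3 1369740_at from -0.0472 to 0.0152, Kcnj6 1370704_at from -0.0534 to 0.0823 and Kcnj6 1369034_at from -0.00391 to 0.00847. Averaging each gene's probe sets that passed turned the correlations of Gabbr1 with Kcnj3 (0.111), Kcnj6 (-0.389) and Kcnj9 (0.433) and of Kcnj6 with Kcnj9 (0.00863). Without the 3 arrays, Gabbr1 with Kcnj6 gave -0.176 and Kcnj6 with Kcnj9 0.0434. The causes were not tested. A level of at least 6 left 4 tested member probe sets without a value.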
